A study of Mus musculus with 4 samples.

Results

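Fibroblasts of the small intestinal lamina propria that carried RNA for bone morphogenetic proteins (BMPs) were followed in wild-type (WT) mice and in A20ZF7 mice, which are homozygous for knocked-in point mutations in the seventh zinc finger of A20. A20, encoded by Tnfaip3, is a ubiquitin-editing brake on NF-kB signalling, and this finger binds linear ubiquitin chains. A member was a droplet barcode with at least 500 UMIs (unique molecular identifiers, each standing for 1 captured RNA molecule), 200 to 2500 genes and at most 15% mitochondrial UMIs that passed 5 further limits. Col1a1, Col1a2, Col3a1 and Dcn summed to at least 3 UMIs, and Bmp3, Bmp5, Bmp7 and F3 summed to at least 2. Adamdec1 was at 1 UMI or fewer, Des, Myh11 and Actg2 at 2 or fewer, and Cd3e, Cd3d, Cd3g, Trac and Trbc2 at 1 or fewer. This gave 317 of 58963 kept barcodes, 227 of 22087 in the WT library and 90 of 36876 in the A20ZF7 library. The members were thus selected on the measured UMIs of these genes, whose levels are descriptions only.

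Each genotype was 1 gene expression library made from a pool of 2 mice aged 12 weeks, and the labels name no treatment. Cells came from proximal small intestine stripped of epithelium, digested, enriched for leukocytes on a Percoll gradient and put through a negative selection aimed at T cells and innate lymphoid cells, so the fibroblasts were carried along and every share of cells passed through these steps. The WT library also had antibody counts and hashtags that separate its mice. With 1 library per genotype no difference between genotypes can be tested, and all intervals given (95%) cover counting error only. Fewer cells of a type, fewer cells released or carried through, and less gate RNA counted per cell cannot be told apart. No member barcode occurred in both libraries, although 14 WT members used a barcode that was also kept in the A20ZF7 library, and 1 A20ZF7 member the reverse.

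BMPs are secreted ligands of the TGF-beta family. In the small intestine they are made by mesenchymal cells under the epithelium, most of all along the villus, where they oppose Wnt signalling and favour differentiation of epithelial cells that leave the crypt. The fibroblasts that lie closest to the epithelium there are known for high PDGF receptor alpha (Pdgfra), and are described as subepithelial fibroblasts or telocytes. Position in the tissue was not measured here.

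Of the genes that go with the label, Pdgfra was high in members and Foxl1 was near its floor. Pdgfra was at 2618 UMIs per 1e+06 UMIs of the class (CPM) in WT members (95% interval 2432 to 2815) and at 1844 CPM in A20ZF7 members (1582 to 2136). In WT mouse 1 it was at 2110 CPM and in WT mouse 2 at 2292 CPM. Fibroblasts with 2 or more Adamdec1 UMIs, the main lamina propria class, were at 419 and 390 CPM in the libraries. Pdgfra UMIs were found in 89.0% of WT and 80% of A20ZF7 members, at medians of 1079 and 947 UMIs per cell, against 0.330% and 0.580% of T cells at medians of 953 and 1124.5 UMIs. After thinning every cell to 500 UMIs, the shares in members were 69.2% and 57.8%. Foxl1, the forkhead factor used to mark intestinal telocytes, gave 7 UMIs in WT members (25 CPM) and 1 in A20ZF7 members (10.4 CPM), against 5.94 and 8.46 CPM in Adamdec1 fibroblasts, and the member levels were near the floor that 3 UMIs set (10.7 CPM in WT, 31.3 CPM in A20ZF7). Of 12 telocyte and subepithelial identity genes, 10 could be compared with Adamdec1 fibroblasts in WT. Of these, 3 were 2-fold or more higher (Pdgfra, Sox6 and Ednrb), 1 was lower (Agt) and 6 differed by less, with a median ratio of 1.37. In A20ZF7, 7 could be compared, with the same 3 higher, 1 lower (Nkx2-3) and a median of 1.095. Agt in WT (2 UMIs in members) and Nkx2-3 in A20ZF7 (10 UMIs) passed the minimum only through Adamdec1 fibroblasts. Over all genes compared, 6.34% were higher and 8.64% lower in WT, and 3.35% and 15.9% in A20ZF7.

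Markers of other cell types were not absent, and those of plasma cells were not low. Immunoglobulin genes were at 5648 CPM in WT and 13219.7 CPM in A20ZF7 members, against 19014.7 and 17785.4 CPM in empty droplets. Of 5 T cell genes, 5 were detected in each library, summing to 104 CPM in WT and 208 CPM in A20ZF7 members, below 749 and 988 CPM in empty droplets (barcodes with 10 to 100 UMIs), with Trbc2 and Cd3e giving the most UMIs. The gate limited these genes. Of 4 B and plasma cell genes, 3 were detected in each, summing to 1095 and 1823 CPM, below 4771 and 3476 CPM in empty droplets, nearly all Jchain, with Ms4a1 at 0. One cell held 222 of the 297 Jchain UMIs in WT, and one held 60 of 164 in A20ZF7. The 6 endothelial genes gave 182 and 198 CPM, with Pecam1 and Plvap at 19 UMIs each in WT and Pecam1 at 11 in A20ZF7, and Cdh5 was at 0 in A20ZF7. Of 5 epithelial genes, all were detected in WT (186 CPM, led by Fabp1) and none in A20ZF7. The glial genes S100b, Sox10 and Gfap were at 0 in both. Ptprc, which marks leukocytes, was at 143 CPM in WT and 302 CPM in A20ZF7 members, against 615 and 1085 CPM in empty droplets.

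Of the gate genes, Bmp5 was found in most members, 179 of 227 in WT and 61 of 90 in A20ZF7. Bmp5 was at 1123 CPM in WT and 1031 CPM in A20ZF7 members. Bmp7 stood at 404 and 510 CPM, Bmp3 at 293 and 292 CPM, and F3 (tissue factor, which starts the coagulation cascade) at 447 and 427 CPM. In the A20ZF7 members relative to WT members the ratio was 0.92 for Bmp5 (0.725 to 1.15), 1.26 for Bmp7 (0.884 to 1.78), 0.99 for Bmp3 (0.623 to 1.54) and 0.96 for F3 (0.654 to 1.37). The gate sets a minimum on the sum of these genes in both libraries. Of WT members, 29.5% had UMIs of exactly 1 of the 4 gate genes, 54.6% of 2, 14.1% of 3 and 1.76% of all 4. The corresponding shares were 40%, 48.9%, 11.1% and 0% of the 90 A20ZF7 members, the last with an exact upper bound of 4.02%. Bmp5 and Bmp7 were found together in 28.6% of WT and 26.7% of A20ZF7 members.

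The members were a smaller part of the fibroblasts in the A20ZF7 library. They made up 227 of 6264 WT fibroblasts, or 3.62% (exact binomial interval 3.17 to 4.12), and 90 of 9118 A20ZF7 fibroblasts, or 0.987% (0.794 to 1.21). The A20ZF7 share was 0.272 times the WT share (0.214 to 0.347). Of all kept barcodes the shares were 1.03% and 0.244%, a ratio of 0.237 (0.186 to 0.303). Among kept barcodes hashtagged to the WT mice the shares were 0.515% (24 of 4657) and 0.605% (33 of 5457), lower than the pooled 1.03% and above the A20ZF7 share. Adamdec1 fibroblasts were 70.4% and 68.1% of fibroblasts (ratio 0.967, 0.947 to 0.988), and fibroblasts with at least 2 UMIs of Pi16, Cd34 and Grem1, markers of adventitial and crypt-base fibroblasts, were 7.17% and 7.1% (ratio 0.99, 0.882 to 1.11). The remaining fibroblasts went the other way, at 18.8% (17.8 to 19.8) in WT and 23.8% (22.9 to 24.7) in A20ZF7. The ratio was below 1 in each of the alternative gates and filters run. A gate chosen after the data had been seen replaced the Bmp and F3 sum with 2 or more UMIs of the transcription factor Sox6 (ratio 0.229, 0.174 to 0.301). Sox6 was itself lower in A20ZF7 in fibroblasts with at most 1 Adamdec1 UMI and no gate UMI (49.8 against 120 CPM in WT). That gate is therefore not separate support for a lower share. WT fibroblasts were deeper (median 1058 UMIs per fibroblast against 959), and with each barcode thinned to 500 UMIs before gating the ratio was 0.352 (0.243 to 0.509).

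**Figure D1:**
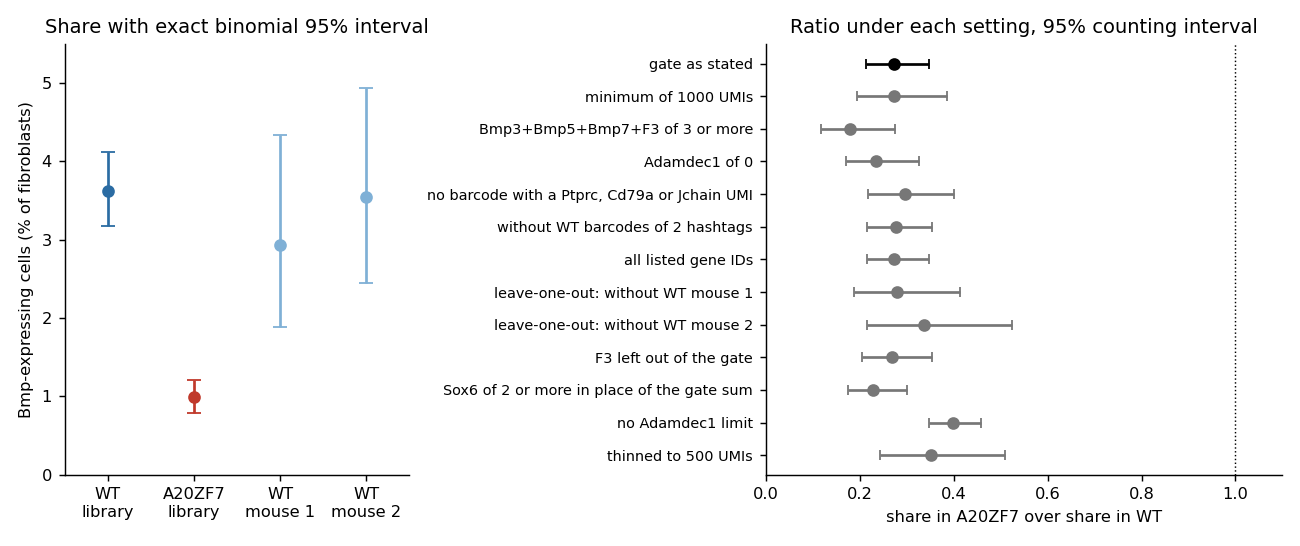
Left, Bmp-expressing cells as a percent of fibroblasts in each library and in the hashtagged cells of each WT mouse, with exact binomial 95% intervals. Right, the A20ZF7 share divided by the WT share under each gate or filter, with 95% counting intervals and a dotted line at equal shares. Every ratio and its interval lie below 1, from 0.180 to 0.399.

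The WT mice could be compared because each had been marked with a hashtag, an antibody whose oligonucleotide is counted with the cell. Their barcodes are shown because the split of WT members by animal rests on them.
Hashtag 7 (WT mouse 1): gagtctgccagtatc
Hashtag 8 (WT mouse 2): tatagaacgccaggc
WT mouse 1 had 24 members among 817 fibroblasts (2.94%, 1.89 to 4.34) and WT mouse 2 had 33 among 932 (3.54%, 2.45 to 4.94). Both lay above the A20ZF7 share of 0.987%, and their intervals did not reach its upper bound of 1.21%. A further 18 WT members were called for both hashtags, and 152 of 227 (67.0%) for neither, so these shares describe the marked minority. The antibody counts provided for the A20ZF7 library were the same file as those for WT, so the A20ZF7 mice could not be separated.

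Levels of genes that the gate did not name differed with the number of gate UMIs in a cell. Among fibroblasts with at most 1 Adamdec1 UMI in WT, Sox6 was at 120 CPM in the 1386 cells with no UMI of the gate genes, 660 CPM in the 241 cells with 1, 1161 CPM in the 124 with 2, 1400 CPM in the 61 with 3 and 1624 CPM in the 42 with 4 or more. In A20ZF7 it was at 49.8, 360, 772, 850 and 1626 CPM in 2602, 217, 63, 18 and 9 cells. Pdgfra was at 532 CPM with no gate UMI, 1349 CPM with 1, 2755 CPM with 2, 2334 CPM with 3 and 2673 CPM with 4 or more in WT, and at 370, 1131, 1679, 2177 and 2337 CPM in A20ZF7. From 2 gate UMIs on, the Pdgfra intervals overlapped. Cells just outside the threshold, with 1 gate UMI, held levels between those of cells with none and those of members. A gate sum of 2 or more together with 2 or more Adamdec1 UMIs occurred in 279 WT and 204 A20ZF7 fibroblasts, which are not members. Those cells held Sox6 at 701 and 694 CPM.

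**Figure D2:**
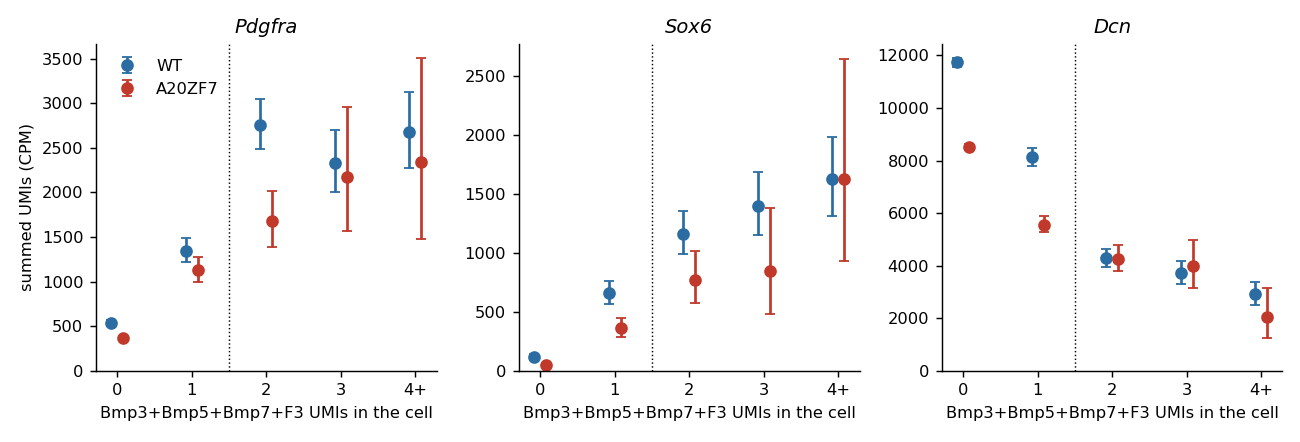
Summed level (CPM) of Pdgfra, Sox6 and Dcn in fibroblasts with at most 1 Adamdec1 UMI, by the number of Bmp3, Bmp5, Bmp7 and F3 UMIs in the cell, with exact Poisson 95% intervals; the dotted line is the member threshold. Sox6 goes from 120 CPM at 0 to 1624 CPM at 4 or more in WT, while Dcn is lower on the member side.

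Members that qualified on F3 alone stood apart from the others. There were 12 in WT and 8 in A20ZF7, and their Sox6 was at 120 and 124 CPM, from 2 and 1 UMIs, against 1403 and 944 CPM in the remaining 215 and 82 members. Their Dcn was at 9085 and 9910 CPM, against 3510 and 3435 CPM. Clec3b was at 2888 and 1610 CPM, against 1285 and 1183 CPM. Intervals for Sox6 and Dcn did not overlap between these subsets in either library. Genotype values of C3, Mt1, Ccl2, Cxcl10 and Fmo2 are given with and without F3-alone cells.

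Against Adamdec1 fibroblasts of the same library, the members differed by 2-fold or more in both libraries for 192 genes. Of 2143 genes that could be compared in both (at least 50 CPM and 20 UMIs on the higher side), 54 (2.52%) were higher in members and 138 (6.44%) lower, and 3 (0.14%) differed in opposite directions. All 4 gate genes are among the 54, and Adamdec1 is among the 138, by construction. The 54 became 18 at a gate sum of at least 3, 28 with Adamdec1 at 0 and 30 at a minimum of 1000 UMIs per cell, and the 138 became 83 at a minimum of 100 CPM. Within a library both classes were counted against the same annotation.

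Subunits of a potassium channel led the higher genes outside the gate. Abcc9, the sulfonylurea receptor subunit of ATP-sensitive potassium channels, was at 544 CPM in WT and 260 CPM in A20ZF7 members against 31.3 and 17.5 CPM in Adamdec1 fibroblasts. That is 17.4-fold higher in WT (13.9 to 21.7) and 14.9-fold in A20ZF7 (9.27 to 23.0). Kcnj8, the pore-forming subunit of the same channel, was at 258 and 229 CPM against 16.6 and 16.2 CPM, 15.5-fold (11.3 to 21.4) and 14.1-fold (8.53 to 22.5) higher. In the WT mice, Kcnj8 was at 224 and 279 CPM and Abcc9 at 479 and 498 CPM. These genes are also expressed by pericytes. Of 4 pericyte genes (Rgs5, Cspg4, Notch3 and Kcnj8 itself), 3 could be compared in WT, with 1 higher, 1 lower and a median ratio of 1.31, and 2 in A20ZF7, with 1 higher and 1 lower. Rgs5 was lower in members (168 and 156 CPM) than in Adamdec1 fibroblasts (830 and 622 CPM). Cspg4 (the NG2 proteoglycan) gave 22 and 7 UMIs, at 78.7 and 72.9 CPM against 59.95 and 41.0 CPM, and Notch3 gave 2 UMIs in WT and 1 in A20ZF7. Summed, the list was at 512 and 469 CPM in members and at 914 and 687 CPM in Adamdec1 fibroblasts. The part of pericytes in these values was not tested.

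Transcription factor, matrix and receptor genes followed. Sox6, an SRY-related transcription factor, was at 1327 and 875 CPM in members against 95.8 and 65.7 CPM in Adamdec1 fibroblasts, 13.9-fold (12.1 to 15.9) and 13.3-fold (10.4 to 16.8) higher. Sox6 was at 991 CPM in WT mouse 1 and 1295 CPM in WT mouse 2. Ogn (osteoglycin, a small leucine-rich proteoglycan) was at 1341 and 656 CPM against 113 and 68.5 CPM, and Ogn was also carried by Pi16, Cd34 or Grem1 fibroblasts at 636 and 387 CPM. Col4a5, a chain of basement membrane collagen, was 8.59-fold and 12.7-fold higher. Fry was 9.50-fold and 8.48-fold higher, and Smoc2, a secreted calcium-binding matrix protein, 8.16-fold and 6.98-fold. Ednrb, the endothelin B receptor, was at 365 and 250 CPM against 53.1 and 36.0 CPM.

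The 54 genes also held Ednra, the endothelin A receptor, and contractile genes. Acta2 (smooth muscle actin) was at 1323 and 1073 CPM against 412 and 278 CPM. Tagln (transgelin) was at 1928 and 1188 CPM against 328 and 200 CPM, 5.87-fold and 5.93-fold higher. Of 6 smooth muscle genes, 3 could be compared in WT and all 3 were higher (median ratio 3.30), and 2 in A20ZF7, both higher (median 4.89). Myh11, smooth muscle myosin heavy chain, gave 74 UMIs in 63 of 227 WT members (265 CPM against 80.3) and 19 UMIs in 16 of 90 A20ZF7 members (198 CPM against 59.9), although the gate limited it together with Des and Actg2. Cnn1, a marker of mature smooth muscle, gave 1 UMI in WT and 0 in A20ZF7. The part of smooth muscle cells in these values was not tested. Myl9, Tpm2, Cald1 and Flna, which encode contractile or actin-binding proteins, were 2.12-fold to 4.31-fold higher across the libraries. Aldh1a1, which makes retinoic acid from retinal, was 4.90-fold and 5.22-fold higher, while Aldh1a3, of the same function, was 0.49-fold and 0.45-fold the level of Adamdec1 fibroblasts.

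Foxl1 being a forkhead factor, the promoter windows of the higher genes were searched for a forkhead core motif, and the 3 that held it are shown. The windows are from RefSeq (GRCm38.p6), 250 bases before to 50 after a transcript start, and capitals mark matches on either strand to TGTTTAC (forkhead), AACAAT (SOX) or GGCGCC (SMAD1/5); in Pde1c the first forkhead and SOX matches overlap.
Cald1, chr6:34598254-34598553, plus strand: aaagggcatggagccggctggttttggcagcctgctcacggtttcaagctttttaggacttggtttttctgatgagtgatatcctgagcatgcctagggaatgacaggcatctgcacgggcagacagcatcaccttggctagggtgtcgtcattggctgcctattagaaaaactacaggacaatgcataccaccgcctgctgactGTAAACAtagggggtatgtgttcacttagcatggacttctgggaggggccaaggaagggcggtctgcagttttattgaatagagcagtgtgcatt
Pde1c, chr6:56369585-56369884, minus strand: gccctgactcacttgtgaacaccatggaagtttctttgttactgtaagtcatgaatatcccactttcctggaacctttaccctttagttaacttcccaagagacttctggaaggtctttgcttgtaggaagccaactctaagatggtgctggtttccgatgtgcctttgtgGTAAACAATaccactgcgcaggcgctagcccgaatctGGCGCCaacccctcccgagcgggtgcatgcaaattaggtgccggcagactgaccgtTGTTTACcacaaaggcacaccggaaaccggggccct
Adam19, chr11:46054252-46054551, plus strand: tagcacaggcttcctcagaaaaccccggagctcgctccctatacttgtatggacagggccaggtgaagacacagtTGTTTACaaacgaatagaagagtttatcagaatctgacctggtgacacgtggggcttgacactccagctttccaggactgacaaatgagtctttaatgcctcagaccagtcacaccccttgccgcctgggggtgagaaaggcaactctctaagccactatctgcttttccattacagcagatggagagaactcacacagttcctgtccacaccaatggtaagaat
Promoter windows were matched for 37 of the 50 higher genes outside the gate. Of their 57 windows, 3 (5.26%) held the forkhead letters, against 3.65% of the 32851 windows searched, which did not cover every chromosome. The SOX letters were in 6 (10.5%) against 10.7%, the SMAD1/5 letters in 10 (17.5%) against 11.9%, and the GLI letters GACCACCCA in 0 against 0.253%. A match is a description of these letters in these windows.

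For gene groups, each library is read on its own. In WT, 6.34% of 3657 genes were 2-fold or more higher in members than in Adamdec1 fibroblasts and 8.64% lower, and in A20ZF7 3.35% and 15.9% of 2415. The minimum is one-sided, since a gene higher in members needed 20 UMIs in the members themselves (208 CPM in A20ZF7), while a lower gene could pass at 50 CPM through the deeper Adamdec1 class. Nothing is therefore read from the balance of higher and lower genes in a list. Of 12 BMP and TGF-beta family ligands, 10 could be compared in WT, with 4 higher and 1 lower, and 6 in A20ZF7, with 3 higher and 2 lower. Without Bmp3, Bmp5 and Bmp7, which the gate selects on, the counts were 1 higher (Inhba) and 1 lower (Tgfb2) of 7 in WT and 0 higher and 2 lower (Bmp2 and Tgfb2) of 3 in A20ZF7. Tgfb2 in both libraries (5 and 1 UMIs in members), and Bmp2 in A20ZF7, passed only through Adamdec1 fibroblasts. Outside the gate, Bmp4 was at 358 and 281 CPM in members against 409 and 329 CPM in Adamdec1 fibroblasts (ratios 0.87, 0.708 to 1.07, and 0.85, 0.562 to 1.25), and Bmp6 was at 118 and 104 CPM against 98.8 and 100.5 CPM. Bmp2 was at 136 CPM in WT members, from 38 UMIs in 29 cells, and gave 2 UMIs in A20ZF7 members (20.8 CPM). Inhba, an activin subunit, was 4.97-fold higher than in Adamdec1 fibroblasts in WT (3.0 to 7.91), and gave 2 UMIs in A20ZF7 members, under the minimum. Tgfb2 was at 17.9 and 10.4 CPM in members against 89.1 and 87.2 CPM.

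Of 12 BMP antagonists, 5 could be compared in WT, with 2 higher and 1 lower, and 4 in A20ZF7, with 1 higher and 1 lower. Nbl1, a secreted antagonist of the DAN family, was at 2032 and 1417 CPM in members against 640 and 513 CPM, 3.17-fold (2.90 to 3.47) and 2.76-fold (2.31 to 3.28) higher. Chrd (chordin) was at 114.5 and 125 CPM against 23.8 and 21.9 CPM, from 32 and 12 UMIs, the latter under the minimum. Grem1, the antagonist that marks crypt-base fibroblasts, was lower at 32.2 and 20.8 CPM against 104 and 188 CPM. Nog and Fst gave no UMI in the members of either library. Of 15 BMP receptors, SMADs and target genes, 7 could be compared in WT, of which 0 differed by 2-fold, and 6 in A20ZF7, of which 1 was lower. The target Id3 was at 404 and 469 CPM against 311 and 247 CPM.

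Of 8 Wnt antagonists, 5 could be compared in WT, with 3 lower and 1 higher, and 4 in A20ZF7, with 3 lower. Frzb and Dkk2 in both libraries, and Sfrp1 in A20ZF7 (17 UMIs), passed only through Adamdec1 fibroblasts. Sfrp1, a secreted Wnt-binding protein, was at 92.9 and 177 CPM in members against 1512 and 1605 CPM in Adamdec1 fibroblasts (ratios 0.06 and 0.11). Sfrp1 was at 0 in WT mouse 1 members and at 39.9 CPM in those of WT mouse 2. Frzb gave 0 UMIs in WT and 1 in A20ZF7 members against 53.6 and 63.9 CPM. Dkk2 was at 0.31 and 0.40 times the Adamdec1 level, from 7 and 2 UMIs. Wif1, another Wnt inhibitor, went the other way, with 23 UMIs in WT members (82.3 CPM against 2.34) and 2 UMIs in A20ZF7 members. Of 8 Wnt ligands and R-spondins, 2 could be compared in WT, Wnt5a (higher) and Rspo3 (lower), and in A20ZF7 Rspo3 alone, which passed only through Adamdec1 fibroblasts in both libraries. Wnt5a was 5.58-fold (4.201 to 7.33) higher in WT, at 243 CPM against 43.6. In A20ZF7 it was at 125 CPM against 28.0, from 12 UMIs, under the minimum. Rspo3, an R-spondin that amplifies Wnt signals at the crypt, was at 35.8 CPM in WT members and 0 UMIs in A20ZF7 members against 77.6 and 76.8 CPM.

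Several complement genes were lower. C3, the central complement component, was at 125 CPM in WT members against 761 CPM (ratio 0.16, 0.114 to 0.229) and at 1125 CPM in A20ZF7 members against 2330 CPM (ratio 0.48, 0.396 to 0.583). C4b was at 0.12 and 0.29 times the Adamdec1 level and Cd55 at 0.15 and 0.38, while C1s1 differed by less than 2-fold. Of 8 complement genes, 5 were lower in WT and 4 in A20ZF7, none higher, with medians of 0.28 and 0.51 against 1.001 and 0.821 over all genes compared. Of 9 fibrillar collagens and proteoglycans, all compared, 3 were lower in WT (Col3a1, Col5a2 and Col14a1; median 0.606) and 1 in A20ZF7 (Col3a1; median 0.691), none higher. Col3a1 was at 0.36 and 0.48, and Dcn, which did not pass 2-fold, at 0.57 and 0.69, times the Adamdec1 level, although both were in the collagen gate that all fibroblast classes shared. Of 16 basement membrane and sheet collagen genes, 15 could be compared in WT, with 4 higher and 1 lower (median 1.295), and 14 in A20ZF7, with 2 higher and 2 lower (median 1.13). Lama4, a laminin chain, was 3.05-fold and 3.09-fold higher. Hspg2 (perlecan) was 2.27-fold higher in WT and at a ratio of 1.86 in A20ZF7, which did not pass, and Col15a1 was at 0.25 and 0.14.

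Genes with the smallest ratios by the naming rule also included Shisa3, Dclk1, Vwc2, Mmp16, Rap2a, Otulinl, Matn2 (a matrilin of the matrix) and C1qtnf3. Each gave at most 5 UMIs in the members of a library, against 52.5 to 284 CPM in Adamdec1 fibroblasts. Fmo2 (a flavin monooxygenase) was lower too, at 53.7 and 229 CPM against 722 and 723 CPM. Of 8 coagulation and fibrinolysis genes, 6 could be compared in WT, with 4 higher, F3 of the gate among them, and 1 lower, and 2 in A20ZF7 (F3 and Thbd), both higher. Thbd (thrombomodulin, an anticoagulant receptor) was at 894 and 542 CPM against 185 and 152 CPM. Procr (the protein C receptor) was 6.22-fold higher in WT, and its 9 UMIs in A20ZF7 members were under the minimum (93.8 CPM against 28.1). Il34, a ligand of the CSF1 receptor on macrophages, was at 204 and 198 CPM against 54.9 and 39.7 CPM, from 57 UMIs in WT and 19 in A20ZF7 members, the latter under the minimum.

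**Figure D3:**
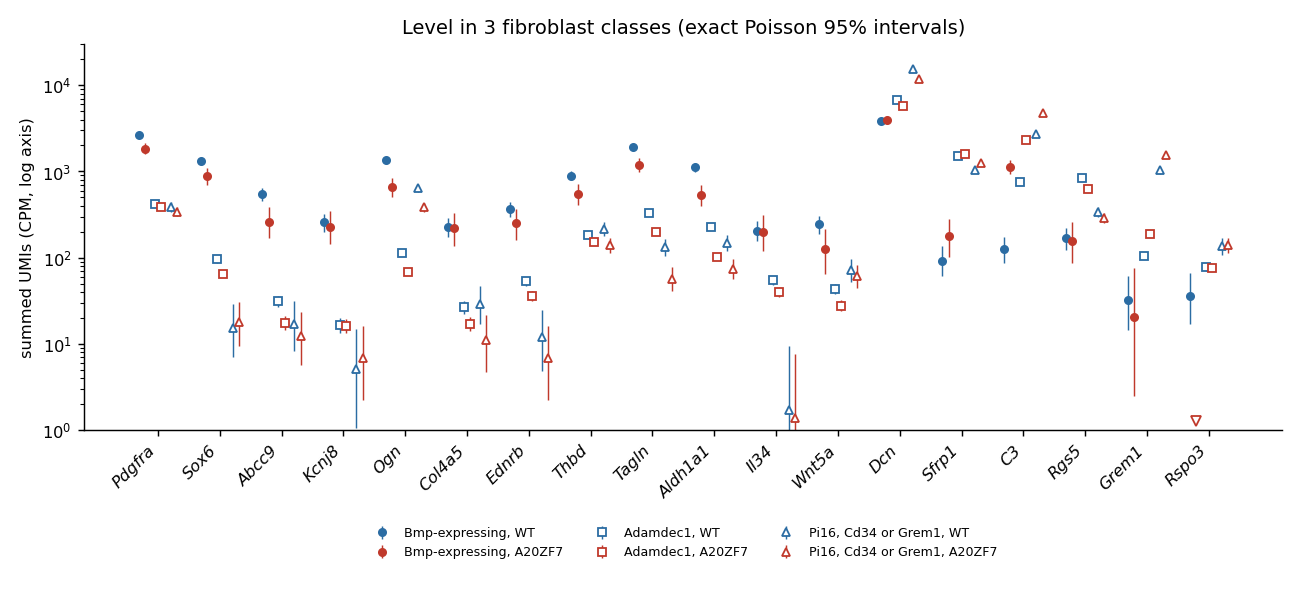
Level (CPM, log axis) of 18 genes in Bmp-expressing, Adamdec1 and Pi16, Cd34 or Grem1 fibroblasts of each library, with exact Poisson 95% intervals; downward triangles mark 0 UMIs. Pdgfra to Wnt5a lie above their Adamdec1 levels and Dcn to Rspo3 below them; Il34 and Wnt5a rest on 19 and 12 UMIs in A20ZF7, and Dcn is within 2-fold.

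Against the Pi16, Cd34 or Grem1 fibroblasts, 96 of 1877 genes (5.11%) were 2-fold or more higher in members in both libraries and 184 (9.8%) lower. Sox6 was 85.7-fold and 48.4-fold higher there, and Kcnj8 49.9-fold and 33.0-fold. Ogn separated these classes less, at 2.11-fold and 1.70-fold. C3 in this class was at 2700 and 4771 CPM. For 12 dissociation and heat shock genes, all compared, the median ratios of members to this class were 0.338 in WT and 0.502 in A20ZF7. Over all genes compared the medians were 1.09 and 0.797, with lower quartiles of 0.780 and 0.570. Gates that left fewer cells gave fewer higher genes, as counted at the end.

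Surface antibodies gave a readout that the gate did not use, in WT alone. Of 122 antibodies at 1000 or more per 1e+06 antibody UMIs, 1 (0.82%) was 2-fold or more higher on members than on Adamdec1 fibroblasts and 0 (0.0%) were lower. The oligonucleotides of the antibodies discussed are shown because these are what was counted.
CD38: cgtatccgtctccta
CD39: gcgtatttaacccgt
CD55: attgttgtcagacca
CD49a: ccattcatttgtggc
CD140a: gtcattgcggtccta
CD38, an NAD-consuming ectoenzyme, was at 15762 per 1e+06 antibody UMIs (written below as per M) on members and 6898 on Adamdec1 fibroblasts, 2.29-fold higher (2.23 to 2.34). It was 1.958-fold higher in WT mouse 1 and 2.01-fold in WT mouse 2. CD38 stood at 3873 per M in empty droplets and 11633 on T cells, below the level on members in both cases. Cd38 RNA was at 32.2 CPM in WT members, from 9 UMIs, and 16.4 CPM in Adamdec1 fibroblasts, a difference not detectable at this depth.

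CD39, an ATP-degrading ectoenzyme, was at 20262 per M on members and 32210 on Adamdec1 fibroblasts (ratio 0.63), and at 0.57 and 0.54 in the WT mice. Its RNA, Entpd1, was at 7.15 CPM in WT members against 101 CPM. CD55, which limits complement activation, was at 1397 against 2377 per M (ratio 0.59, and 0.66 and 0.60 by mouse), on members close to its 1329 in empty droplets. CD49a (integrin alpha 1) was 1.26-fold higher, and 1.27-fold and 1.26-fold in the WT mice, and its RNA Itga1 was at 343 against 115 CPM. CD140a, the protein of Pdgfra, was at 11683 per M on members, 11050 on Adamdec1 fibroblasts, 10780 on T cells and 11788 in empty droplets, so its level on members was no higher than in droplets without cells. CD31 was 1.59-fold higher over all WT members and 1.05 and 0.585 times the Adamdec1 level by mouse, with a median of 8 UMIs per cell in each class. Entpd1, Cd55, Itga1 and Cd38 RNA were looked up after the antibody values had been seen.

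**Figure D4:**
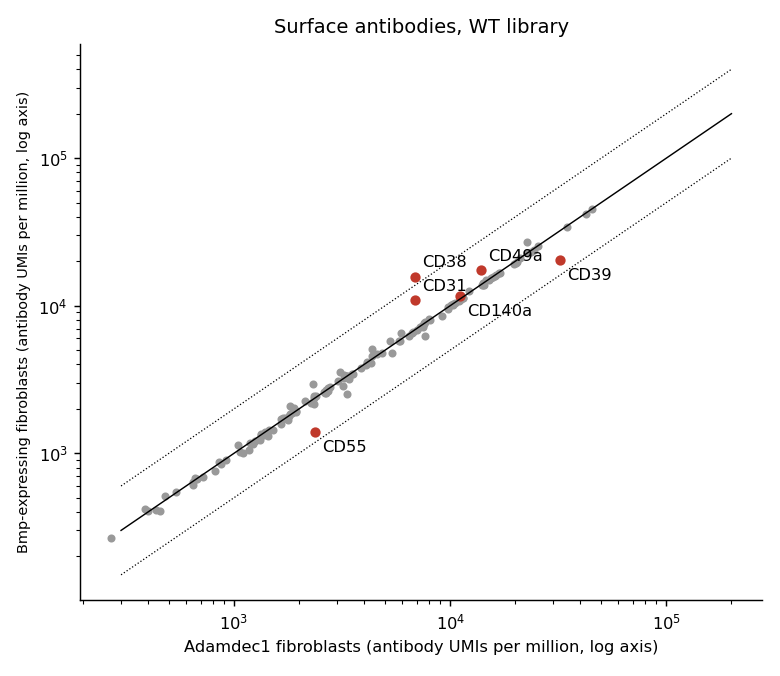
Antibody UMIs per 1e+06 (per M) on WT Bmp-expressing fibroblasts against WT Adamdec1 fibroblasts, both axes log, 1 point per antibody; the solid line is equality and dotted lines are 2-fold. CD38 lies above the upper line at 15762 against 6898 per M, and CD39 and CD55 lie near the lower line.

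Between the genotypes, C3, Mt1, Isg15 and some NF-kB response genes were higher in A20ZF7 members. Abcc9 and Ogn were 2-fold lower in the counts as deposited (ratios 0.48 and 0.49). After a background subtraction they were at 0.758 (0.474 to 1.16) and 0.762 (0.570 to 1.002), no longer 2-fold lower. Pdgfra and Sox6 went from 0.70 and 0.66 to 1.11 and 1.04. The ratios of C3 and Mt1 were 15.8 and 11.5 after subtraction. The scale of that subtraction rests heavily on single cells, and its limits are given below. Of 2080 genes that could be compared, 75 (3.61%) were 2-fold or more higher in A20ZF7 members and 291 (14.0%) lower, with a median ratio of 0.806. The minimum of 20 UMIs was not the same level in both, since it is 208 CPM in the smaller A20ZF7 pool and less in WT. At 208 CPM or more for both, 75 of 935 genes (8.02%) were higher and 46 (4.92%) lower, with a median of 0.996. With 1 WT mouse alone more genes were higher than lower. Background subtraction left fewer higher and more lower genes, and these counts are given at the end. The 2 libraries also listed different gene sets (31950 gene IDs were shared). A ratio between genotypes, of gene levels or of the members' shares, therefore cannot be told apart from a difference in annotation. For example Plac9, Dlgap1, Zc3h7a, Ndufb4 and Muc3 are among the largest (Zc3h7a and Ndufb4) or smallest (Plac9, Dlgap1 and Muc3) ratios, and their ratios in Adamdec1 fibroblasts (0.0048, 0.088, 12.1, 7.26 and 0.012) and empty droplets (0.015, 0.038, 6.48, 8.76 and 0.0066) lay on the same side.

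C3 was at 125 CPM in WT members and 1125 CPM in A20ZF7 members, 8.99-fold higher (6.09 to 13.6). It came from 35 UMIs in 15 WT cells and 108 UMIs in 29 A20ZF7 cells. The WT mice were at 32.0 and 120 CPM, both below the A20ZF7 library. C3 was 3.06-fold higher in A20ZF7 in Adamdec1 fibroblasts and 2.21-fold in empty droplets. In members with a Bmp3, Bmp5 or Bmp7 UMI it was at 72.3 and 717 CPM, and in F3-alone members at 963 and 5574 CPM, higher in A20ZF7 in each subset. C4b was 2.91-fold higher (1.70 to 5.0), while Serping1, a complement inhibitor, was 1.54-fold higher (1.21 to 1.97). Of 5 complement genes compared, 2 were 2-fold or more higher and 0 lower, beside 3.61% and 14.0% of all genes.

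Of 15 NF-kB feedback and response genes, 7 could be compared, and 4 were 2-fold or more higher in A20ZF7 members and 0 lower, with a median ratio of 2.0, beside 3.61% higher and 14.0% lower over all genes (8.02% and 4.92% at the equal minimum). These were Nfkbiz (114 to 229 CPM), Nfkb1 (132 to 292 CPM), Vcam1 (82.3 to 208 CPM) and Tnfaip2 (85.8 to 229 CPM). In Adamdec1 fibroblasts 3 of 12 were higher and 0 lower, with a median of 1.77, where 4.28% of all genes were higher and 2.4% lower. In empty droplets 5 of 9 were higher, with a median of 2.11, where 14.2% of all genes were higher. Tnfaip3 itself, the mutated gene, was at 250 and 406 CPM (ratio 1.62, 1.07 to 2.43). Leukocyte signal moved the same way: Ptprc was 2.11-fold higher in A20ZF7 members (1.26 to 3.49), and immunoglobulin genes were at 5648 and 13219.7 CPM. Its part in the NF-kB values was not tested. Nfkbia was at 290 and 281 CPM, a ratio of 0.97 (0.60 to 1.52).

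Of 16 interferon response and MHC genes, 7 could be compared, with 2 higher, Isg15 among them, 0 lower and a median ratio of 1.55. Over all genes 3.61% were higher and 14.0% lower (8.02% and 4.92% at the equal minimum). In Adamdec1 fibroblasts 2 of 13 were higher, with a median of 1.48, where 4.28% of all genes were higher. In empty droplets 1 of 12 was higher, with a median of 1.11, where 14.2% of all genes were higher. Isg15, a ubiquitin-like protein, was at 78.7 and 250 CPM, 3.18-fold higher (1.71 to 5.94), and its ratio was 1.48 in Adamdec1 fibroblasts and 1.31 in empty droplets. Bst2 (tetherin) was at 283 and 313 CPM, and Irf1, an interferon regulatory factor, at 157 and 167 CPM from 44 and 16 UMIs. B2m, H2-K1 and H2-D1, which form MHC class I, were 1.55-fold, 1.67-fold and 1.53-fold higher, and in Adamdec1 fibroblasts 1.502-fold, 1.67-fold and 1.34-fold.

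Several of the largest ratios rested on few cells. Ccl2, a chemokine that draws monocytes, was at 39.3 CPM in WT and 490 CPM in A20ZF7 members, from 11 UMIs in 3 cells and 47 UMIs in 6 cells, of which 1 cell held 20. Ccl2 was 1.38-fold higher in Adamdec1 fibroblasts. Cxcl10, an interferon-induced chemokine, gave 22 UMIs in A20ZF7 members, 16 of them in 1 cell, and 19 were in F3-alone members. In members with a Bmp UMI, Cxcl10 was at 38.0 and 34.1 CPM, from 10 and 3 UMIs, with overlapping intervals. Ccl2 in those members was at 41.8 and 409 CPM. Mt1, a metallothionein, was at 204 and 1281 CPM, from 57 UMIs in 27 cells and 123 in 31 cells, and 55 of the 123 lay in the 8 F3-alone cells. Mt1 in members with a Bmp UMI was at 167 and 773 CPM. Fmo2 was at 53.7 and 229 CPM, with 13 of its 22 A20ZF7 UMIs in F3-alone cells, and at 49.4 and 102 CPM in members with a Bmp UMI, from 13 and 9 UMIs, where the intervals overlapped.

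Genes of lymphocytes and enterocytes filled much of the rest of the named list. Il17a, Gzma, Ctla4, Il22 and Ccl5 were 16.5-fold, 9.03-fold, 8.74-fold, 4.21-fold and 4.18-fold higher in A20ZF7 members. In Adamdec1 fibroblasts the same genes were 9.74-fold, 6.17-fold, 6.02-fold, 2.78-fold and 5.29-fold higher, and in empty droplets 7.60-fold, 2.22-fold, 3.86-fold, 2.19-fold and 1.20-fold. Il17a gave 34 UMIs in 8 A20ZF7 members and 6 in 3 WT members. One A20ZF7 cell held 44 of 62 Gzma UMIs (71.0%), and one held 12 of 26 Il22 UMIs. Fabp2, Fabp1, Apoa1, Apoa4 and Rbp2, genes of absorptive enterocytes, gave 1 UMI in all in A20ZF7 members, and 99 of 103 Apoa4 UMIs in WT members were in 1 cell. In empty droplets the A20ZF7 levels of these genes were 0.13, 0.106, 0.023, 0.052 and 0.089 times WT. Selp (P-selectin, an endothelial and platelet gene) gave 41 UMIs in 4 WT cells and 0 in A20ZF7. The part of free RNA and of adhering cells in these values was not tested.

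Of the 12 telocyte and subepithelial identity genes, 9 could be compared. Foxf1, Foxf2, Pdgfrb and Nkx2-3 passed the filter only through WT, from 41, 45, 42 and 77 UMIs against 7, 10, 8 and 10, so nothing is read from a count or median that includes them. Of the other 5 (Pdgfra, Sox6, Ednrb, Tnc and Vim), Tnc was 2-fold lower in the counts as deposited (ratio 0.498, 0.355 to 0.686). The ratios of the rest ran from 0.66 to 1.05. Pdgfra was 0.70 times WT (0.59 to 0.83) and Sox6 0.66 (0.51 to 0.84), and in Adamdec1 fibroblasts 0.93 and 0.69. Subtracting an empty-droplet profile scaled on immunoglobulin UMIs turned both above 1, to 1.11 (0.935 to 1.31) for Pdgfra and 1.04 (0.805 to 1.32) for Sox6, and it removed 29.7% of WT and 74.3% of A20ZF7 UMIs. One cell held 79.1% of the immunoglobulin UMIs that set the WT figure, and 1 cell held 35.7% of those for A20ZF7. In both libraries Ptprc in members was below its empty-droplet level multiplied by the share removed. The scale was therefore too high for that gene, and no conclusion is drawn from the subtracted ratios. Abcc9 was at 0.48, Ogn at 0.49 and Aldh1a1 at 0.48 times WT in the counts as deposited, and in Adamdec1 fibroblasts at 0.56, 0.61 and 0.45. At this scale Abcc9 and Ogn were no longer called, as given above. No subtracted value is given for Tnc or Aldh1a1, so whether their calls would stand is not known. Tnc, a matrix glycoprotein, was at 941 and 469 CPM in WT and A20ZF7 members. Contractile genes showed Acta2 at 0.81 (0.65 to 1.01) and Tagln at 0.62 (0.50 to 0.76) times WT. In Adamdec1 fibroblasts 3 of 6 smooth muscle genes could be compared, with a median of 0.676, against 0.995 over all genes. In empty droplets all 6 could be compared, with a median of 0.429, against a median of 1.34 and a lower quartile of 0.994 over all genes. Dcn and Col1a1 were at 1.04 (0.919 to 1.17) and 0.997 (0.788 to 1.25). Ddit4, Oxct1 and Tmem200a each gave 25 to 27 UMIs in WT members and 1 in A20ZF7 members.

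**Figure D5:**
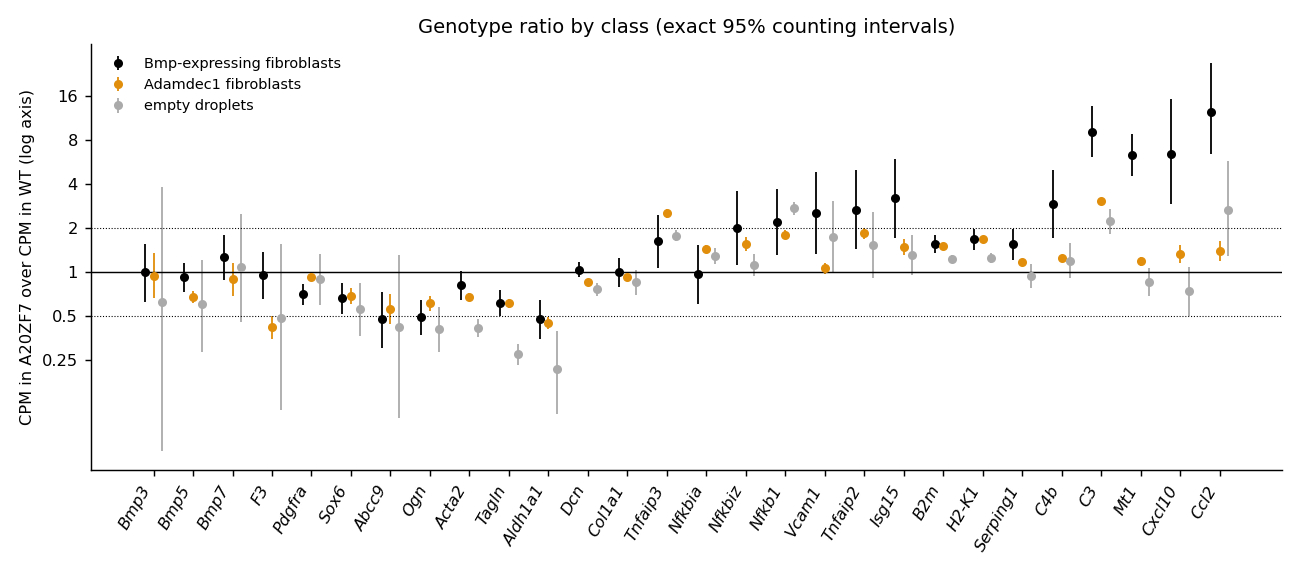
A20ZF7 level divided by WT level (log axis) of 28 genes in Bmp-expressing fibroblasts, Adamdec1 fibroblasts and empty droplets, with exact 95% counting intervals and dotted lines at 2-fold. C3 (8.99), Mt1 (6.28), Cxcl10 (6.41) and Ccl2 (12.4) have the largest ratios in Bmp-expressing fibroblasts among the genes plotted, and each lies above its ratio in Adamdec1 fibroblasts. Without the F3-alone cells Cxcl10 was at 38.0 CPM in WT and 34.1 CPM in A20ZF7.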

How the data were processed

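The authors counted 10x Genomics reads with Cell Ranger (7.1 in the submitters' processing notes, 8.0.0 in the gene matrix headers, 7.1.0 in the antibody header), on mm10 by those notes, with Seurat 4.3 and R 4.3.3 downstream. The deposited values were unfiltered UMI counts per barcode. The libraries held 35289432 (WT) and 54587004 (A20ZF7) UMIs. Their gene lists differed (33696 and 32285 IDs), so the 31950 shared IDs were used, matched by ID. The A20ZF7 antibody counts were identical to those of WT and were not used.

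Counts were summed over the cells of a class and given as CPM. With 1 library per genotype there was no test. Intervals (95%) are exact Poisson for a level, exact binomial for a share, exact conditional for the ratio of 2 levels, and computed on the log scale for the ratio of 2 shares. A gene was called at a 2-fold difference with 50 CPM and 20 UMIs on the higher side (antibodies: 1000 per 1e+06 antibody UMIs and 20 UMIs). Calls and intervals were tested on simulated data drawn as independent Poisson counts, the model that the intervals assume. The simulation left out the clustering of UMIs in single cells, so it does not test the intervals for that. WT mice were assigned with HTODemux (Seurat 5.3.0, R 4.3.3, quantile 0.99). No doublet caller was run. T cells were kept barcodes with at least 2 UMIs of the T cell genes, a Ptprc UMI and none of the collagen gate. Thinned shares used at most 1500 cells per class. Depth sets precision: 3 UMIs are 10.7 CPM in WT and 31.3 CPM in A20ZF7 members. Python 3.11.15 and scipy 1.17.1 were used.

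The gate, gene lists and comparisons were chosen with earlier results of these data known. Named genes were those of the gate and lists and the 12 largest and 12 smallest ratios (for classes, by the smaller effect of the libraries), leaving out mitochondrial, ribosomal protein, immunoglobulin, T cell receptor, sex-linked, hemoglobin, Gm and Rik genes. Some genes that this rule names are not reported here. Other genes named, from the 54 higher genes, were chosen after their values were seen. Alternatives changed the gate, depth, gene IDs, CPM minimum, background and WT mice.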

Additional observations from a re-analysis of the deposited data

How the results depend on the processing

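No paired analysis was possible because each genotype is 1 library. The ratio of the members' shares (0.272) was under 1 in every alternative run. It moved to 0.180 with a gate sum of at least 3 and, in settings chosen after seeing the data, to 0.399 without the Adamdec1 limit and 0.352 after thinning, and with hashtagged cells of 1 WT mouse alone it was 0.279 to 0.336. The Sox6 gate and the gate without F3 were also chosen after seeing the data. The 54 genes higher than in Adamdec1 fibroblasts became 30 at a minimum of 1000 UMIs per cell, 18 at a gate sum of 3 and 28 with Adamdec1 at 0, and the 138 lower became 83 at 100 CPM. The 96 higher than in Pi16, Cd34 or Grem1 fibroblasts became 49, 25 and 42 in those gates and 57 without barcodes that held a Ptprc, Cd79a or Jchain UMI. Of the 366 genes 2-fold apart between genotypes, 233 were left at a gate sum of 3, 238 at 100 CPM, 121 at the equal CPM minimum (added after seeing the data), 580 after background subtraction and 116 to 138 with 1 WT mouse. The 75 higher became 39 at 1000 UMIs, 14 at a gate sum of 3, 22 with Adamdec1 at 0, 32 without leukocyte UMIs, 48 after subtraction, 41 without the top cell of each gene (added after seeing the data) and 97 to 125 with 1 WT mouse. The 291 lower became 532 after subtraction, 163 at 100 CPM, 46 at the equal minimum and 13 to 19 with 1 WT mouse. Each of these gates leaves fewer cells, and a mouse alone has fewer UMIs. Subtraction turned Pdgfra (0.704 to 1.11) and Sox6 (0.659 to 1.04), on a scale that rests heavily on single cells, and the cause was not tested. Antibody calls (1) were 2 without leukocyte UMIs and 0 to 1 with 1 WT mouse. Ratios of 6 single genes had no value in 8 alternatives because a side was at 0 UMIs. The WT mouse 2 to mouse 1 ratio of shares was 1.21. Depth limits the members of single WT mice (31283 and 50185 UMIs) and of A20ZF7 (95993 UMIs).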
